A study of Mus musculus with 12 samples.

Results

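The 9 keratin genes compared here are basal and suprabasal keratins grouped under the interfollicular epidermis, the skin surface between hair follicles, although *Krt79* is best known from the follicle opening, and were measured in filaggrin-deficient periocular skin with and without MyD88. They were chosen by symbol: *Krt5* and *Krt14* of the basal layer, *Krt1* and *Krt10* of the layers above it, and *Krt2*, *Krt77*, *Krt78*, *Krt79* and *Krt80*. All 9 were found among the 21247 genes of the count table, which listed 54 keratin genes in all. The RNA-seq libraries came from periocular skin of 6-week-old mice on a BALB/c background, 4 labelled ft/ft and 4 labelled ft/ftMyD88-/-. Mice of both groups are homozygous for a spontaneously arisen point mutation that disables filaggrin, bred apart from the matted mutation of the original strain, and ft/ftMyD88-/- mice also lack MyD88, the adaptor of toll-like and IL-1 receptors, in every tissue. Wild-type libraries were not analysed here. Nothing in the labels says which libraries shared a litter or a sequencing run, so p-values measure the spread between these 8 libraries.

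Keratins are the intermediate filament proteins of epithelia. An acidic type I keratin pairs with a basic type II keratin, and the filament forms only from such pairs. Basal keratinocytes, which divide and are anchored to the basement membrane, make KRT5 with KRT14. When a cell leaves the basal layer it switches to KRT1 with KRT10, and in the uppermost living layers KRT2 and other late type II keratins are added before filaggrin bundles the filaments in the cornified layer. Of the 9 genes, *Krt14* and *Krt10* encode type I keratins on chromosome 11, and the other 7 encode type II keratins on chromosome 15.

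Total counts ran from 15802957 to 29255129 per library, and counts are given as CPM, a gene's counts relative to the total of its library after edgeR's TMM scaling. *Myd88* stood at 41.2 ± 7.29 CPM (SD, n = 4) in libraries labelled ft/ftMyD88-/-. It was lower in ft/ft, at 30.7 ± 4.74 CPM (edgeR adjusted p = 0.0484). The study's immunofluorescence showed MyD88 protein mainly in epidermal cells of ft/ft mice, but not in those of ft/ftMyD88-/- mice. A gene count cannot show whether an exon was deleted, so the RNA level does not decide whether the label holds. *Flg* was at 242 ± 39.5 CPM in ft/ftMyD88-/- and 103 ± 69.8 in ft/ft (edgeR adjusted p = 0.12). *Tmem79*, the gene of the matted mutation, fell from 59.2 ± 2.92 to 16.4 ± 2.1 CPM (edgeR adjusted p = 5.08e-07). All mice are labelled female. *Xist* was at 34.6 to 66.8 CPM in the libraries labelled ft/ftMyD88-/- and at 0 to 0.0429 in those labelled ft/ft, whereas the Y-linked *Ddx3y* was at 54.2 to 73.2 CPM in ft/ft and at 0 to 0.482 in ft/ftMyD88-/-. Genotype and sex therefore cannot be told apart in any difference that follows.

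The sequence shown next marks where reads of a basal keratin and of its stress-induced relative cannot be distinguished. The study's methods give reads of 50 bases. Whether that holds under the fixed-tissue protocol named in the submitters' notes was not tested. Of the distinct 50-base stretches of *Krt14* transcripts, 13.9% also occur in transcripts of another gene, mostly *Krt16*. For *Krt5* this share was 12.2%, mostly with *Krt6a*. It was 2.74% for *Krt80* and 2.37% for *Krt10*, and 0 for *Krt1*, *Krt2*, *Krt77*, *Krt78* and *Krt79*. The longest coding stretch that *Krt14* shares with *Krt16* is 134 bases in exon 1, at chr11:100207017-100207150 of GRCm38 on the minus strand. It is taken from GENCODE M21 transcripts, with the shared bases in capitals and 15 bases of the member on each side in lower case.
Krt14 with Krt16: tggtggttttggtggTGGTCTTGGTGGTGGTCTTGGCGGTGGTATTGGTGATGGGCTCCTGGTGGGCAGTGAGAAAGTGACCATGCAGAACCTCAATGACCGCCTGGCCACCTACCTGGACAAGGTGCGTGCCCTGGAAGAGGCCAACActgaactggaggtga
The study states default HTSeq settings, under which reads marked as aligning to more than 1 place are not counted, but whether the alignments marked such reads is not given in the sources used here, so small differences in *Krt14* and *Krt5* are uncertain.

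Per kilobase of the principal transcript, the 9 genes spanned a wide range. The order given here assumes that counts scale with transcript length. Whether that holds under the fixed-tissue protocol named in the submitters' notes was not tested. *Krt10* was highest in ft/ft, at 3623 ± 344 CPM per kb (SD, n = 4), with its lowest library at 3299.9. It was followed by *Krt14* at 2778 ± 373 CPM per kb, *Krt5* at 2273 ± 225 and *Krt1* at 2266 ± 484, whose library ranges overlapped. *Krt77* at 1443 ± 309 CPM per kb and *Krt79* at 1154 ± 85.1 also overlapped. *Krt80* at 192 ± 17, *Krt78* at 54.9 ± 8.36 and *Krt2* at 9.24 ± 3.89 CPM per kb each lay apart from their neighbours. In ft/ftMyD88-/- the order began with *Krt14* at 2875 ± 499, *Krt10* at 2427 ± 222 and *Krt1* at 2117 ± 336 CPM per kb, which overlapped, and *Krt77* was at 212 ± 143, below *Krt5* at 1425 ± 86 and *Krt79* at 1147 ± 76. With all annotated exons as length, *Krt1* stood at 1260 CPM per kb in ft/ft and *Krt79* at 509, so their ranks depend on the transcript chosen.

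Of the 9 keratins, 5 were lower in ft/ftMyD88-/- at an edgeR adjusted p under 0.05 (*Krt5*, *Krt10*, *Krt77*, *Krt78* and *Krt80*), none was higher, and 4 did not pass the test. All 9 had enough counts to be tested. Among the 20454 genes tested, 23.3% passed in either direction and 12.3% were lower. The median log2 fold change of the 9 was -0.58, against 0.01 over all genes tested. In those 5 genes the 2 groups of libraries did not overlap, as was the case for 26.7% of all genes. Of the genes called, 47.0% were higher in ft/ftMyD88-/-. Scaling by library size alone moved the median of all genes to 0.19 and that share to 77.8%, and scaling by the summed counts of 15 general epithelial genes moved them to 0.21 and 81.9%. The 5 keratin calls held under both.

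**Figure D1:**
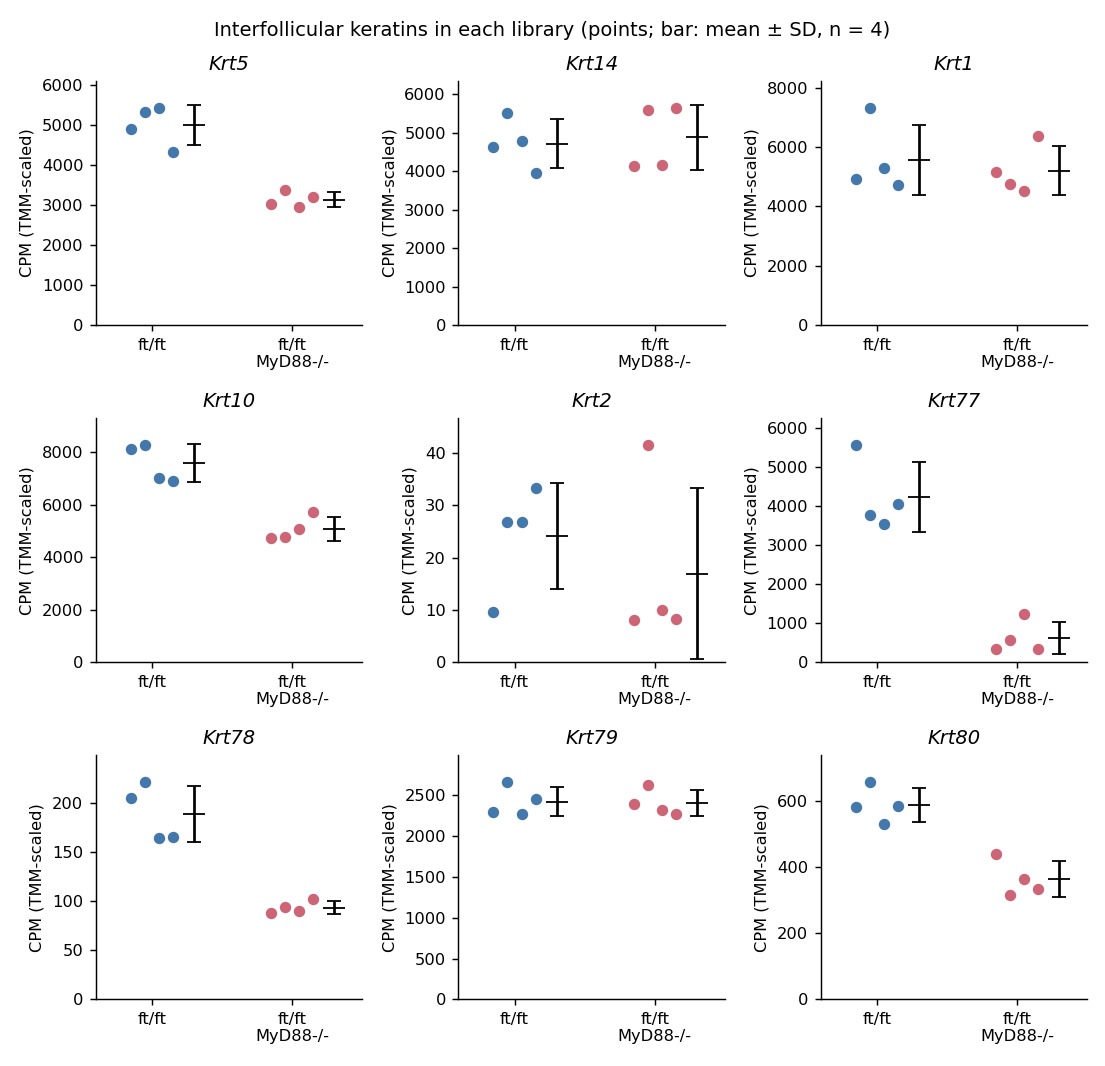
TMM-scaled CPM of each of the 9 keratins in the 4 ft/ft and the 4 ft/ftMyD88-/- libraries (points), with the mean ± SD beside them and every axis starting at 0. *Krt5*, *Krt10*, *Krt77*, *Krt78* and *Krt80* do not overlap between the groups, and *Krt14*, *Krt1*, *Krt2* and *Krt79* do.

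**Figure D2:**
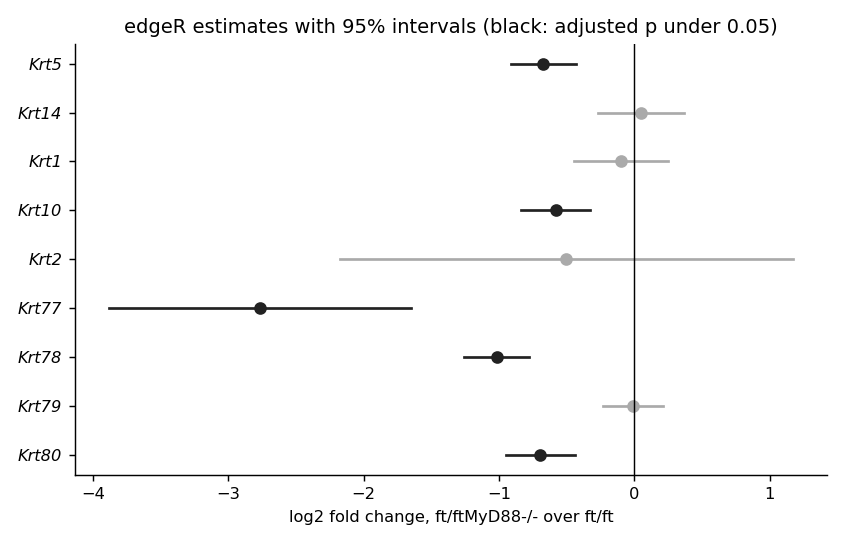
edgeR log2 fold changes of the 9 keratins, ft/ftMyD88-/- over ft/ft, with 95% intervals from the quasi-likelihood test. The interval of *Krt77* runs from -3.88 to -1.65, and those of *Krt14*, *Krt1*, *Krt2* and *Krt79* include 0.

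The basal pair did not move together. *Krt5* (GRCm38.p6 chromosome 15, 101707069 to 101712905) encodes the type II keratin of the pair. Its 4 ft/ft libraries were at 4899, 5323, 5419 and 4334 CPM and its 4 ft/ftMyD88-/- libraries at 3022, 3370.1, 2944 and 3189. Every ft/ftMyD88-/- library lay below every ft/ft library, and the gene was 1.59-fold lower (log2 fold change -0.67, SE 0.111, edgeR adjusted p = 0.0014). *Krt14* (chromosome 11, 100203162 to 100207510) encodes its type I partner. It was at 4632, 5503, 4778 and 3958 CPM in ft/ft and at 4128, 5590.3, 4168 and 5639.5 in ft/ftMyD88-/-. The groups overlapped, with a log2 fold change of 0.05 and a 95% interval of -0.27 to 0.37 (edgeR adjusted p = 0.839).

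The suprabasal pair split as well, but there it was the type I gene that was lower. *Krt10* (chromosome 11, 99385254 to 99397449) was at 8142, 8271, 7019.9 and 6909.9 CPM in ft/ft and at 4735, 4786, 5062 and 5744 in ft/ftMyD88-/-. With no overlap between the groups it was 1.49-fold lower (log2 fold change -0.58, SE 0.117, edgeR adjusted p = 0.0045). *Krt1* (chromosome 15, 101845426 to 101850786), its type II partner, was at 4912, 7308, 5306 and 4729 CPM in ft/ft and at 5160.4, 4759, 4503 and 6367 in ft/ftMyD88-/-. These libraries overlapped, and the log2 fold change was -0.10 with a 95% interval of -0.45 to 0.25 (edgeR adjusted p = 0.702). *Krt1* and *Krt14* thus overlapped between the groups while their partners fell, and their intervals leave room for changes in either direction.

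Because 2 genes of the same library share its depth and its scaling, 5 ratios between keratins were taken within each library, and they do not depend on either. *Krt14*/*Krt5* was 0.946, 1.03, 0.882 and 0.913 in ft/ft and 1.37, 1.66, 1.42 and 1.77 in ft/ftMyD88-/-. Counts of the pair were thus near equal in every ft/ft library and higher for *Krt14* in every ft/ftMyD88-/- library. The difference was 0.71 on the log2 scale (SD 0.0985 and 0.179, n = 4 each, two-sided exact permutation test, p = 0.0286, Benjamini-Hochberg adjusted over the 5 ratios 0.0357). These ratios are not corrected for transcript length, so only their shift between the groups can be read, not parity of the pair. *Krt10*/*Krt1* was 1.66, 1.13, 1.32 and 1.46 in ft/ft and 0.917, 1.01, 1.12 and 0.902 in ft/ftMyD88-/-. It was lower in all 4 ft/ftMyD88-/- libraries, by 0.49 on the log2 scale, although the lowest ft/ft library and the highest ft/ftMyD88-/- library nearly met (exact permutation p = 0.0286, adjusted 0.0357).

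The 2 ratios of a suprabasal to a basal keratin moved in opposite directions. *Krt1*/*Krt5*, of the type II genes, was 1.00, 1.37, 0.979 and 1.09 in ft/ft and 1.71, 1.41, 1.53 and 2.00 in ft/ftMyD88-/-, higher by 0.58 on the log2 scale. *Krt10*/*Krt14*, of the type I genes, was 1.76, 1.50, 1.47 and 1.75 in ft/ft and 1.15, 0.856, 1.21 and 1.02 in ft/ftMyD88-/-, lower by 0.62. Neither ratio overlapped between the groups (exact permutation p = 0.0286 and adjusted p = 0.0357 for each, with 0.0286 the smallest p that 4 libraries against 4 allow). A single suprabasal-to-basal ratio therefore depended on which pair it was taken from. The ratios among *Krt1*, *Krt5*, *Krt10* and *Krt14* share genes and are tied by arithmetic, so they are not independent results.

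**Figure D3:**
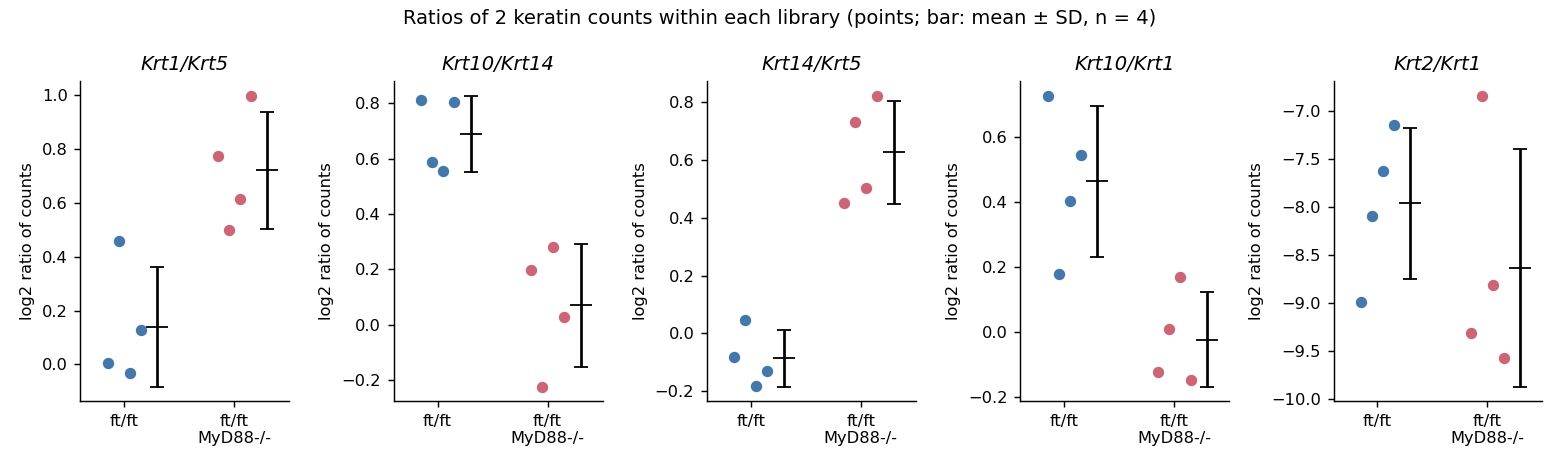
log2 ratios of the counts of 2 keratins in each library (points), with the mean ± SD of each group. *Krt14*/*Krt5* and *Krt1*/*Krt5* are higher in all 4 ft/ftMyD88-/- libraries, *Krt10*/*Krt14* and *Krt10*/*Krt1* are lower in all 4, and *Krt2*/*Krt1* overlaps.

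*Krt16*, the stress keratin that shares reads with *Krt14*, was at 67.2, 253, 46.9 and 49.9 CPM in ft/ft and at 357, 702, 370.3 and 1075 in ft/ftMyD88-/- (log2 fold change 2.58, edgeR adjusted p = 0.053). With the counts of *Krt16* and *Krt17* added to *Krt14* and those of *Krt6a* and *Krt6b* added to *Krt5*, a comparison chosen after the values were seen, the log2 difference of *Krt14*/*Krt5* was 0.71 and that of *Krt10*/*Krt14* was -0.80 (exact permutation p = 0.0286 for each). That of *Krt1*/*Krt5* was 0.40 and no longer passed (exact permutation p = 0.0571). None of the 4 stress keratins passed the edgeR test, and their summed level was 2784 to 3573 CPM among ft/ft libraries and 3208 to 5404 among ft/ftMyD88-/- libraries.

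*Krt77* had the largest difference of the 9. It encodes a type II keratin of the suprabasal epidermis closely related to KRT1, and it lies next to *Krt1* in the cluster (chromosome 15, 101858731 to 101869706), 7945 bases away. Its 4 ft/ft libraries were at 5550.4, 3777, 3533 and 4057 CPM and its 4 ft/ftMyD88-/- libraries at 333, 576, 1226 and 352. The highest ft/ftMyD88-/- library, replicate 3, stood well below the lowest ft/ft library. The gene was 6.80-fold lower (log2 fold change -2.77, SE 0.472, edgeR adjusted p = 0.00675), and leaving out any single library kept the log2 fold change between -3.31 and -2.56. *Krt77* made up 14.0 ± 2.96% of the counts of the 9 genes in ft/ft and 2.91 ± 2.07% in ft/ftMyD88-/- (SD, n = 4). Its neighbour *Krt1* did not pass the test, and whether the difference between the neighbours itself passes a test was not examined.

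The late type II keratins *Krt78* and *Krt80* were lower as well. *Krt78*, which encodes a suprabasal keratin (chromosome 15, 101946001 to 101996624), was at 205, 221, 164 and 165 CPM in ft/ft and at 87.5, 93.5, 89.8 and 102 in ft/ftMyD88-/-. It was 2.02-fold lower without overlap (log2 fold change -1.02, SE 0.111, edgeR adjusted p = 1.43e-04), the smallest adjusted p of the 9. *Krt80* (chromosome 15, 101348315 to 101370162), whose product appears late in epithelial differentiation, was at 582, 658, 530.4 and 586 CPM in ft/ft and at 441, 316, 365 and 334 in ft/ftMyD88-/-. It was 1.62-fold lower, again without overlap (log2 fold change -0.69, SE 0.116, edgeR adjusted p = 0.00158).

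*Krt79* and *Krt2* did not pass the test. *Krt79* (chromosome 15, 101929332 to 101940324) encodes a keratin of the hair follicle infundibulum and the sebaceous duct. It was at 2296, 2658, 2271 and 2457 CPM in ft/ft and at 2396, 2631, 2324 and 2269 in ft/ftMyD88-/-. Its spread was among the smallest, and the 95% interval of its log2 fold change ran from -0.23 to 0.21 (edgeR adjusted p = 0.959). *Krt2* (chromosome 15, 101810689 to 101818956), which encodes a keratin of the upper living layers, was at 9.64, 26.7, 26.9 and 33.4 CPM in ft/ft and at 8.06, 41.5, 10.0 and 8.29 in ft/ftMyD88-/-. Replicate 1 of ft/ft was low and replicate 2 of ft/ftMyD88-/- was the highest of all 8, and the 95% interval of the log2 fold change ran from -2.18 to 1.18 (edgeR adjusted p = 0.658). Without that ft/ftMyD88-/- library *Krt2* was lower, with a log2 fold change of -1.46 (edgeR adjusted p = 0.0452). *Krt2*/*Krt1* differed by -0.67 on the log2 scale between the groups, with overlap (exact permutation p = 0.4).

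The RefSeq window around the transcript start is shown for *Krt10* and *Krt77*, which fell and both held a match to TTGCNNAA, a pair picked after the matches were seen, as the bases from 250 before to 50 after the transcript start in RefSeq (GRCm38.p6, minus strand). *Krt10* is at chr11:99389315-99389614 and *Krt77* at chr15:101869656-101869955, with capitals at matches to TATAAA and to TTGCNNAA, a C/EBP-type motif, on either strand.
Krt10: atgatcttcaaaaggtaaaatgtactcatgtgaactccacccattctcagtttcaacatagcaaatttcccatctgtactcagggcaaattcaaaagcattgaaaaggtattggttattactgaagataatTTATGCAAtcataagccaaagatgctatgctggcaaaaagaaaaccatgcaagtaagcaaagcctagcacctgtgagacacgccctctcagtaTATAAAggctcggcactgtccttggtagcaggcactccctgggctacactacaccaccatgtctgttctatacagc
Krt77: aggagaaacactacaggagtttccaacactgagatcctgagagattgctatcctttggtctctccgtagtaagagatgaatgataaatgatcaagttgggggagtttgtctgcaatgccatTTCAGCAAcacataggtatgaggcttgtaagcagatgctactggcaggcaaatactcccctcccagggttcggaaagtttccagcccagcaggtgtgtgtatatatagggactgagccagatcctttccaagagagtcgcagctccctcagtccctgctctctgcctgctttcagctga
Such windows were found for 7 of the 9 genes. Those of *Krt10*, *Krt14*, *Krt2* and *Krt78* lie inside the gene's annotated span, which begins further upstream, so the counts of matches rest partly on windows that may not be the upstream promoter. TTGCNNAA began 119 bases before the start in *Krt10* and 129 in *Krt77*, matched none of the other 5 windows, and occurred in 10.8% of 32851 promoters of the same length. TATAAA, 26 bases before the start of *Krt10*, was in 1 of the 7 windows and in 13.6% of promoters. TGANTCA (AP-1) and GGGCGG (Sp1), in 7.81% and 35.7% of promoters, were in none of the 7. The spaced core of the p53 family motif was in 3 of the 7 (*Krt5*, *Krt10* and *Krt79*) and in 70.2% of promoters. These are matches of letters only.

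The 9 genes held 2.85 ± 0.243% of all counts in ft/ft and 2.32 ± 0.150% in ft/ftMyD88-/- (SD, n = 4), with libraries from 2.60 to 3.17% and from 2.15 to 2.49%. All 54 keratin genes held 4.03 ± 0.285% and 3.98 ± 0.620%. Of the keratin counts, the 9 genes held 69.9 to 72.6% in ft/ft, and 45.9, 66.7, 67.0 and 57.8% in the 4 ft/ftMyD88-/- libraries. The 15 hair follicle keratins of a fixed list summed to 1542 to 2470.1 CPM in ft/ft and to 2022 to 15474 in ft/ftMyD88-/-, where none of the 15 passed the test and their median log2 fold change was 2.31. The 2 most abundant, *Krt71* and *Krt25* of the inner root sheath, were at 2474 ± 1911 and 1315 ± 987 CPM in ft/ftMyD88-/- against 852 ± 168 and 399 ± 91.7 in ft/ft.

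**Figure D4:**
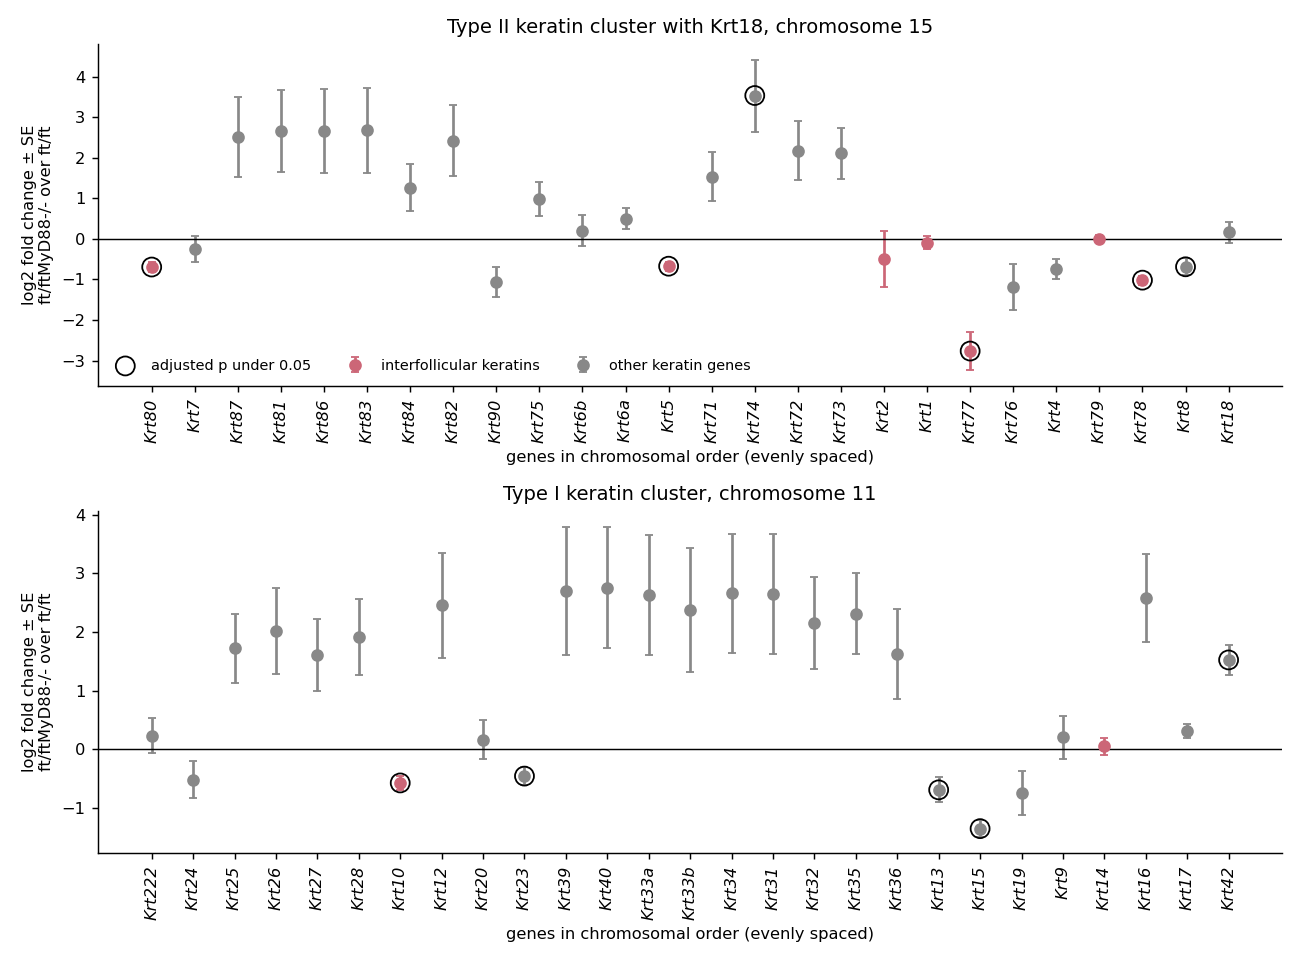
Difference between groups (log2 fold change, with SE bars) of the keratin genes with a RefSeq position, in chromosomal order along the type II cluster on chromosome 15 (above) and the type I cluster on chromosome 11 (below), evenly spaced. The 9 interfollicular keratins lie at or below 0 apart from *Krt14* at 0.05, most hair keratins lie above 1, and rings mark an edgeR adjusted p under 0.05.

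Over all genes tested, 10.9% were higher and 12.3% were lower in ft/ftMyD88-/-. Among the 44 other keratin genes placed in the clusters, 2 were higher, 4 were lower and 38 did not pass. Of those lower, the basal and bulge keratin *Krt15* fell from 5037 ± 642 to 1964 ± 358 CPM (log2 fold change -1.36, edgeR adjusted p = 1.30e-04). *Krt13* and *Krt8*, keratins of conjunctiva and simple epithelium, were the members of a list of 9 such genes that passed, with log2 fold changes of -0.70 and -0.69 (edgeR adjusted p = 0.0408 and 0.0391), and that list summed to 1444 to 2570.4 CPM in ft/ft and 908 to 1758 in ft/ftMyD88-/-.

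The other genes of each epidermal layer were counted on lists of markers. Of 12 genes of basal keratinocytes, 6 were lower, none was higher and 6 did not pass, with a median log2 fold change of -0.36. Besides *Krt15* they included *Lamb3*, a laminin chain of the basement membrane (147 ± 17.4 against 73.5 ± 8.04 CPM), *Col17a1*, a hemidesmosomal collagen (log2 fold change -0.80), and *Dst*, which ties keratin filaments to hemidesmosomes (-0.73). *Trp63*, the regulator of basal identity, was at 269 ± 11.3 and 237 ± 11.1 CPM, without passing (edgeR adjusted p = 0.119). Of 12 spinous layer genes, 4 were lower and 8 did not pass (median -0.20). Those lower were *Sbsn* (-1.45) and *Dmkn* (-1.05), secreted proteins of differentiated keratinocytes, *Dsg1a* (-1.10), a desmosomal cadherin, and the receptor gene *Notch3* (-0.37).

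The granular and cornified list split. Of its 17 genes 10 were lower, 2 were higher and 5 did not pass (median log2 fold change -0.58). *Lce1m* (-2.41), *Lor* (-1.51) and *Flg2* (-1.25), which encode cornified envelope and filaggrin-type proteins, fell, whereas *Rptn* (1.31) and *Casp14* (1.10) rose. Of 7 genes whose products link keratin filaments to junctions, 4 were lower and 3 did not pass (median -0.47), with *Ppl* (-0.74), *Evpl* (-0.67), *Dsp* (-0.61) and *Jup* (-0.34) passing. In the list of 6 genes of the follicle infundibulum and isthmus, where *Krt79* is made, none passed, against 23.3% of all genes. The median was -0.01, with single genes from -0.35 to 0.36. The level of *Cst6* was 2597 ± 139 CPM for ft/ft and 2254 ± 232 for ft/ftMyD88-/-, and *Lrig1* at 137 ± 11 and 156 ± 15.3.

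**Figure D5:**
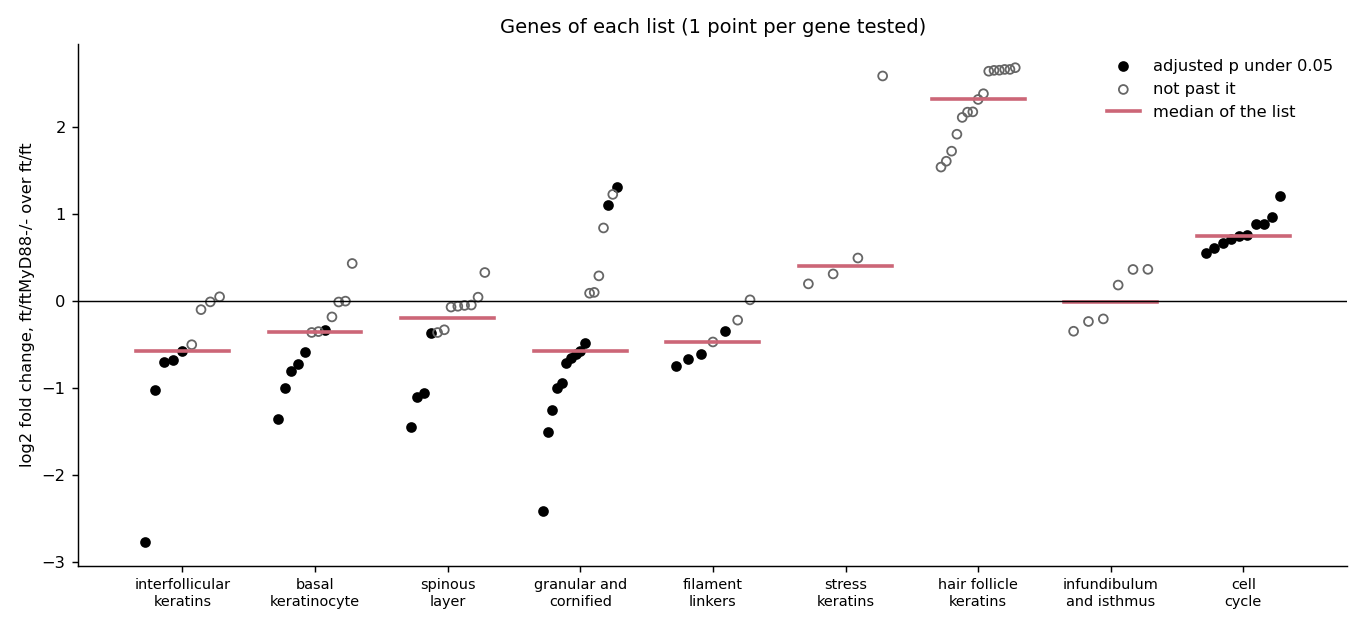
log2 fold change of every tested gene of 9 lists, ft/ftMyD88-/- over ft/ft, with genes past an edgeR adjusted p of 0.05 filled and the median of each list as a line. The medians of the interfollicular keratins, of the basal, spinous and granular lists and of the filament linkers lie below 0, and all 10 cell cycle genes are filled above 0.

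Markers of other cells moved with the same groups. All 10 cell cycle genes were higher, with *Mki67* from 47.9 ± 23.6 to 110 ± 15.6 CPM and a median log2 fold change of 0.75. Of 9 leukocyte genes 6 were higher and 3 did not pass (*S100a8*, *S100a9* and *Adgre1*). The summed level of the 9 was 318 to 558 CPM in ft/ft and 936 to 1662 in ft/ftMyD88-/-. That sum includes *S100a8* (mean 25.8 in ft/ft and 242 CPM in ft/ftMyD88-/-) and *S100a9* (39.2 and 368 CPM). *Ptprc*, which passed, went from 22.2 to 36.1 CPM. Lower genes numbered 10 of 12 for sebocytes (summed 20705 to 23048 against 11754 to 17710.0 CPM), 9 of 10 for skeletal muscle (8831 to 11877 against 3367 to 6478 CPM) and 3 of 6 for fibroblasts (14019 to 29056 against 6962 to 10330.0 CPM). Of 15 general epithelial genes 7 were lower, 1 was higher and 7 did not pass, and their sum was 5967 to 7080.0 CPM in ft/ft and 4959 to 6046 in ft/ftMyD88-/-. In bulk skin, fewer cells of a type and less RNA per cell cannot be told apart, and the part of these shifts in the keratin differences was not tested. When library size was set to the summed epithelial genes, *Krt5* was lower by a log2 fold change of -0.48, *Krt10* by -0.38, *Krt78* by -0.81, *Krt80* by -0.50 and *Krt77* by -2.49, each still past the edgeR threshold.

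After subtraction of each group's mean from log2 CPM, Pearson's r over the 8 libraries was 0.819 between *Krt5* and *Krt14*, 0.662 between *Krt1* and *Krt10*, and 0.903 between *Krt10* and *Krt78*. *Krt77* had its highest r with any other member at 0.007, with *Krt10*, and r = -0.54 with *Krt1*. These are descriptions, since the points share library depth and scaling. The most alike genes named next were picked as the highest of 10234 over only 8 libraries. High r values can arise by chance in such a pick, and none was tested. Among 10234 genes outside the 9, the most alike to *Krt14* were *Krt6a* (r = 0.986) and *Krt6b* (0.982), and to *Krt10* were *Pdzk1ip1* (0.985) and *Lce1d* (0.984). The most alike to *Krt5* were *Phgdh* (0.985) and *Pdlim1* (0.976), and to *Krt1* were *Myl12b* (0.995) and *Hnrnpl* (0.962). For *Krt78* they were *Nmt1* (0.974) and *Ccnf* (0.969), for *Krt79* *Mocs1* (0.98) and *Plcb4* (0.972), for *Krt80* *Samd8* (0.987) and *Slc15a1* (0.978), and for *Krt2* *Dab2* and *Chpf2* (0.98 each).

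For *Krt77* the most alike were a gene with an RP23 clone name (r = 0.976) and *mt-Co1* (0.968), again picked as the highest of many. The latter is the mitochondrially encoded subunit I of cytochrome c oxidase. *mt-Co1* was at 10874, 7993, 8848 and 8851 CPM in ft/ft and at 3790.1, 4961, 7059 and 3354 in ft/ftMyD88-/- (log2 fold change -0.93, edgeR adjusted p = 0.00894). Replicate 1 of ft/ft and replicate 3 of ft/ftMyD88-/- were the highest libraries of their groups for both genes. With muscle and mitochondrially encoded genes left out of the TMM scaling, the log2 fold change of *Krt77* was -2.77, as before. That comparison concerns the scaling only, and whether muscle or mitochondrial content bears on *Krt77* was not tested.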

How the data were processed

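Periocular skin was profiled by RNA-seq in 4 ft/ft and 4 ft/ftMyD88-/- libraries. According to the study's methods, the authors made polyA-selected TruSeq libraries, read as 50-base single ends, aligned them to GRCm38.p6 (HISAT) and to reference genes (tophat2), and ran HTSeq with its default settings, and the deposited values are raw counts per gene. The submitters' processing notes for these samples name Cell Ranger instead, and a fixed-tissue protocol. Tool versions are not given in the sources used here, and no strand setting is stated beyond the HTSeq defaults.

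Genes with at least 10 counts over the 8 libraries (20454) were tested with edgeR 4.0.16 in R 4.3.3 (TMM, glmQLFit with robust = TRUE, glmQLFTest, no covariate, two-sided, Benjamini-Hochberg at 0.05). Standard errors come from the log2 fold change and the F value. Ratios used counts + 0.5. Total counts set the precision: 3 counts, the limit that a count of 0 allows, are 0.103 to 0.19 CPM before TMM scaling, which covers counting error only. All replicate pairs differed beyond sampling noise (lowest chi-square divided by its degrees of freedom, 15.1). On simulated data the fit was checked with 200 genes changed by the same fold, up or down, and with the same spread setting for every gene. That check does not cover smaller changes or more variable genes. Positions come from RefSeq and lengths from GENCODE M21. Symbols of 16066 of the 21247 genes matched RefSeq.

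The members and lists were chosen with earlier results of these data known. Named genes are the members, the targeted and sex-linked genes, at most 4 called genes per list with the largest change (or the 2 most abundant where none passed), and the 2 genes most alike each member. *Krt16*, *Trp63*, *Casp14*, *S100a8*, *S100a9*, *Adgre1* and *Ptprc* were named after their values were seen, as was *Krt15* among the keratins. Alternatives were DESeq2 1.42.0, limma voom 3.58.1, other scalings and filters, the replicate block and leaving out each library. The stretch that *Krt5* shares with another gene is not reported here.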

Additional observations from a re-analysis of the deposited data

Results flagged for a closer look

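*Krt2* was at 41.5 CPM in ft/ftMyD88-/- replicate 2, far from 8.06 to 10.0 CPM in the other 3 libraries of that group. The gap to the nearest library took 0.942 of the group's whole range, above Dixon's 95% critical value for 4 samples. It was the only library that stood apart in this way in 28 groups of values examined (9 keratins and 5 ratios in 2 genotypes). Chance flags about 1 group in 20, so 1 flag in 28 groups is no more than chance gives. The ratios reuse the same genes, so the groups are not independent.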

How the results depend on the processing

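The calls of *Krt5*, *Krt10*, *Krt77*, *Krt78* and *Krt80* kept their direction and their side of the threshold in all 17 alternatives run for each. The requirement of a log2 change of 1 or more is not among those 17. Under it *Krt77* (-2.77) and *Krt78* (-1.02) keep their calls, and *Krt5* (-0.67), *Krt10* (-0.58) and *Krt80* (-0.69) lose them. Of the other members, *Krt79* changed sign with DESeq2 and with RLE normalization (0.0043 each), with edgeR's own filter (0.0022), with library size alone (0.17) and with the summed epithelial genes (0.19), *Krt1* with library size alone (0.0755) and the epithelial genes (0.0851), all without passing. With each library left out in turn the log2 fold change ran from -0.0516 to 0.0388 for *Krt79*, from -0.20 to 0.0612 for *Krt1*, from -0.0257 to 0.13 for *Krt14* and from -1.46 to -0.26 for *Krt2*, which passed without ft/ftMyD88-/- replicate 2. *Krt1*/*Krt5* moved to 0.40 and lost its call with the near copies added. The share of the 9 genes differed by -0.534 percentage points of all counts and by -11.4 points of keratin counts. Of all genes, 2239 were higher and 2525 lower, against 4638 and 1326 with library size alone, 3730 and 825 with the epithelial genes, and 752 and 520 when a log2 change of 1 or more either way was also required. With libraries left out the higher genes ran from 1464 (without ft/ft replicate 4) to 2260 and the lower from 1851 to 2408. Same-numbered libraries did not visibly vary together (r = -0.355, 0.027, 0.088 and -0.071), and differently numbered ones ran from -0.316 to 0.271. So few values cannot show whether the numbers mark a shared litter or run. With the replicate block 1895 genes were higher and 2144 lower, *Krt5* was at -0.67, *Krt77* at -2.97, *Krt14* at 0.0418, and the pairing changed no keratin call. The exact paired test of the ratios cannot go below p = 0.125 with 4 pairs, and with 3 libraries against 4 the ratios are given as values. The depth of *Krt2*, at 136 to 1129 counts, limits it less than its spread.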
